A study of Mus musculus with 23 samples.

Results

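The subject is a set of 10 genes reported as induced in rodent liver by genotoxic carcinogens and chosen from outside the targets of the DNA damage factor p53. The members are Tubb2b, Tubb4b, Abcb1a, Abcb1b, Rcan1, Pmm1, Ccnf, Lrp1, Hspb1 and Ly6a. The platform annotation gave 9 of them a total of 21 probe sets of their own, out of 18193 genes and 45037 probe sets on the array, and Ly6a was not analysed here. Each gene was represented by its probe set with the highest mean over the 23 arrays, and the other probe sets are described beside it. A further probe set, shared by Tubb2b and another gene, was left out. Liver RNA came from male FVB/N-SULT1A1/2 mice, hemizygous for a transgene with human SULT1A1 and SULT1A2, sulfotransferases that treated and control animals both carried. The labels give every animal an age of 5 weeks, also after 90 d of dosing, so it may be the age at the start. The promoter that drives the transgene is not named in the labels. Treated mice received 1-MIM-OH (1-methoxy-3-indolylmethyl alcohol, a breakdown product of a cabbage glucosinolate) in oral doses of 26 mg/kg body mass. Their livers were taken after 10 doses (21 d, n = 5) or 40 doses (90 d, n = 6), and livers of mice given the vehicle alone, glyceryl trioctanoate, were taken at the same times (n = 6 each). The array of 1 further treated animal at 21 d was left out by the submitters for hybridisation artefacts.

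Genotoxic liver carcinogens bind to DNA after metabolic activation, and sulfotransferases activate benzylic alcohols such as 1-MIM-OH by forming reactive sulfate esters. Expression signatures of such compounds in rat and mouse liver hold many p53 targets, and genes of varied function accompany them. Tubb2b and Tubb4b encode beta-tubulins, which pair with alpha-tubulins to build microtubules. Abcb1a and Abcb1b encode the mouse P-glycoproteins, efflux pumps for hydrophobic compounds that sit at the bile canaliculus in liver. Hspb1 encodes a small heat shock protein that binds unfolded proteins. Ccnf encodes cyclin F, an F-box protein that selects substrates for ubiquitination, and Rcan1 encodes an inhibitor of the phosphatase calcineurin. Pmm1 encodes a phosphomannomutase, and Lrp1 encodes a large endocytic receptor that takes up remnant lipoproteins in hepatocytes. Ly6a encodes Sca-1, a surface protein that interferons induce.

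A control for shortened RNA differed between the groups at 21 d. The medians of the arrays were 5.53 to 5.61 in log2 signal. The processing by RMA gives all arrays 1 distribution, so like medians cannot show whether overall signal differed. Arrays within a group correlated at 0.984 to 0.997 over all probe sets. The Gapdh control probe sets for the 3' and the 5' end differed at 21 d by a log2 signal of 1.00 ± 0.51 in the 5 treated livers and by 0.33 ± 0.13 in the 6 vehicle livers (SD, 2-sided exact permutation p = 0.0216). At 90 d they differed by 0.53 ± 0.40 in treated and 0.50 ± 0.15 in vehicle livers (SD, n = 6 each, 2-sided exact permutation p = 0.909). The 5 arrays over 0.9 were 4 treated arrays at 21 d and treated replicate 6 at 90 d. Hepatocyte markers (Alb, Apoa1, Ttr, Cps1, Cyp2e1) averaged between 14.83 and 14.94 on the 23 arrays. Of 40 measured markers of hepatocytes and 7 other cell types, 0 passed at 21 d and 0 at 90 d by limma, against 1.17% and 0.748% of all genes. An unadjusted p under 0.05 was found for 1 marker at 21 d and 4 at 90 d, against 16.6% and 12.1% of all genes. In whole liver, fewer cells of a type and less RNA per cell cannot be told apart.

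Promoter sequences are printed for the member that passed the test (Tubb4b), for the member whose probe sets gave like values at both times (Hspb1), and for the pair of neighbouring pump genes with unequal values (Abcb1a, Abcb1b). They run from 250 bases before to 50 after the annotated start and come from RefSeq on GRCm38.p6, whose table held 9 promoters of 8 members. Capitals mark the GC box GGGCGG, the CCAAT box CCAAT, the heat shock element GAANNTTC and the AP-1 site TGANTCA. Both strands were searched, and no matches overlapped in the member promoters. The windows are chr2:25224653-25224952 on the minus strand for Tubb4b, and on the plus strand chr5:135887669-135887968 for Hspb1, chr5:8566841-8567140 for Abcb1a and chr5:8797897-8798196 for Abcb1b.
Tubb4b: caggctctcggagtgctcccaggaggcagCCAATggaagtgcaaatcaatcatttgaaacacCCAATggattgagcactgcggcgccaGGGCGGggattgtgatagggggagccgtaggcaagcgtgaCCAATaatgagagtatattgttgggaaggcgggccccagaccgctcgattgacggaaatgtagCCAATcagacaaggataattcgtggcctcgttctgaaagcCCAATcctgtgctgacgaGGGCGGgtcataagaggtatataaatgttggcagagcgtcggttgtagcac
Hspb1: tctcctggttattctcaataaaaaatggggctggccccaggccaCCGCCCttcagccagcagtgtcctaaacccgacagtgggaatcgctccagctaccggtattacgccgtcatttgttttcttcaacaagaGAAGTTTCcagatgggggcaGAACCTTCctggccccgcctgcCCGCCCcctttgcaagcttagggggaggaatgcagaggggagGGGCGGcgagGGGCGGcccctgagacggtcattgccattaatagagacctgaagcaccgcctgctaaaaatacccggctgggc
Abcb1a: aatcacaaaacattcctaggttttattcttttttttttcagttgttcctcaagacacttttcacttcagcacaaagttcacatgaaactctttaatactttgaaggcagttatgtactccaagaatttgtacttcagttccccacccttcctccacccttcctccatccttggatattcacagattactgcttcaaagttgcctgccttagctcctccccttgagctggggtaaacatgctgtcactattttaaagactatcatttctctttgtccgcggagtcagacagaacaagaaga
Abcb1b: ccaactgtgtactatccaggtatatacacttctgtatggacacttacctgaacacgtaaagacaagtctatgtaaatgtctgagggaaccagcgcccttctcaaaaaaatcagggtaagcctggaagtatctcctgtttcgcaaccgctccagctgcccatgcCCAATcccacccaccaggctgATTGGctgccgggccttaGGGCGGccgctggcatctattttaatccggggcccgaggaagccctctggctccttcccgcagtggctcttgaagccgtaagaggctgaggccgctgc
The Tubb4b window held 5 CCAAT boxes, which started at positions -221, -188, -122, -59 and -19 from the start site, and 2 GC boxes. At least 5 CCAAT boxes were found in 0.271% of the 32851 promoters of this length. The Hspb1 window held 2 heat shock elements, at -117 and -97, and 4 GC boxes. At least 2 heat shock elements were found in 0.344% and at least 4 GC boxes in 5.49% of all promoters. These thresholds equal the counts in the printed windows, so the shares describe that choice. The Abcb1b window held 2 CCAAT boxes and 1 GC box, and the Abcb1a window held none of the 4 motifs. A CCAAT box was present in 37.4%, a GC box in 35.7%, a heat shock element in 7.86% and an AP-1 site in 7.81% of all promoters. A single 10-letter unit of the p53 consensus element, which holds a pair of such units, is not marked by capitals. It matched in the Abcb1b window and in 8.36% of all promoters, and it did not match in the other 8 member promoters. These matches describe letters in a window and carry no measurement of binding.

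Of the 9 measured members, Tubb4b rose at 21 d, and the other 8 did not pass. A gene passed at a limma adjusted p under 0.05 over all 45037 probe sets, and at 21 d 1.17% of all genes and 0.957% of all probe sets did so. An unadjusted p under 0.05 was found for 2 members at 21 d, Tubb4b and Hspb1, and for 16.6% of all genes. The members had a median log2 fold change of 0.04, with 8 of 9 above 0, and all genes had a median of -0.02, with 43.7% above 0. At 90 d, 0 of the 9 members passed by limma, and 0.748% of all genes and 0.502% of all probe sets did. The treated and vehicle groups of 90 d overlapped for all 9 members, and for all genes 1.35% did not overlap, 0.967% with treated livers higher. An unadjusted p under 0.05 was found for 5 members at 90 d and for 12.1% of all genes. Of these 5, Tubb4b, Abcb1a, Hspb1 and Ccnf had higher means and Rcan1 a lower mean in treated than in vehicle livers. The median of the members was 0.24 at 90 d, again with 8 of 9 above 0, and that of all genes was 0.02, with 57.2% above 0.

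**Figure D1:**
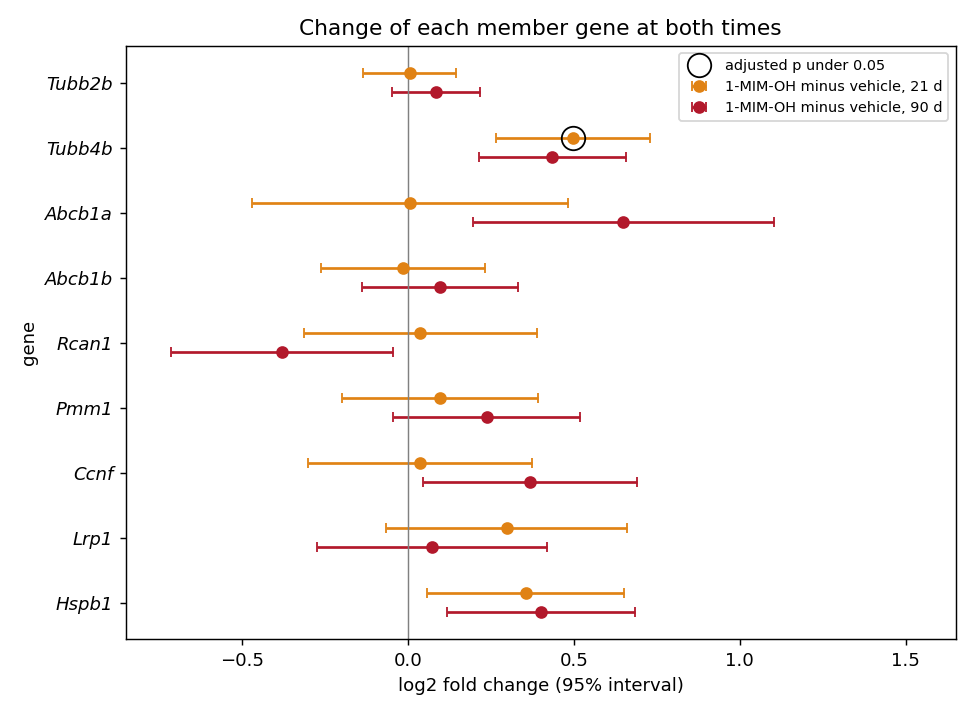
Log2 fold change of treated over vehicle livers (x axis) for each of the 9 measured members (y axis) at 21 d and 90 d, with 95% intervals from limma (bars); a ring marks an adjusted p under 0.05. Tubb4b at 21 d (0.50) carries the only ring, and Rcan1 at 90 d (-0.38) has the only interval that lies wholly below 0.

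Tubb4b, a beta-tubulin made in most tissues, had the smallest p among the members at both times. Its log2 signal was 10.90, 11.01, 11.22, 11.23 and 10.90 in the 5 treated livers at 21 d, against 10.52, 10.41, 10.48, 10.73, 10.67 and 10.52 in the vehicle livers. The lowest treated liver lay above the highest vehicle liver, and groups did not overlap at 21 d, in either direction, for 2.81% of all genes. Tubb4b rose 1.41-fold at 21 d (log2 fold change 0.50 ± 0.11 SE, limma adjusted p = 0.035). The call ended in 8 of the 23 fits that left out 1 array, those without treated 21 d replicates 1, 3 or 4 or vehicle 21 d replicates 1, 2, 3, 5 or 6, with a highest adjusted p of 0.0983 by limma. The Gapdh 3' minus 5' value differed by 0.67 between these groups, and with it as a covariate Tubb4b had a log2 fold change of 0.61 (limma adjusted p = 0.0669). When the 5 arrays over 0.9 were dropped, 1 treated array remained at 21 d, its spread was taken from the other groups, and the value was 0.46 (limma adjusted p = 0.259).

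At 90 d, Tubb4b measured 11.52, 11.38, 11.01, 11.64, 11.15 and 10.84 in treated livers, against 10.88, 10.65, 10.84, 10.93, 10.85 and 10.78 in vehicle livers. Treated replicate 6 lay within the vehicle range, and the other 5 treated livers lay above it. The log2 fold change was 0.44 ± 0.11 (SE, limma adjusted p = 0.0693), so the gene did not pass. By limma it passed without treated 90 d replicate 6 (0.52, adjusted p = 0.009), without treated 90 d replicate 3 (0.48, adjusted p = 0.0346) and with the Gapdh covariate (0.44, adjusted p = 0.0372). The 90 d effect minus the 21 d effect was -0.06 ± 0.15 (SE, limma adjusted p = 0.914).

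The group means of Tubb4b came in the order treated 90 d (11.26 ± 0.31 SD, n = 6), treated 21 d (11.05 ± 0.16 SD, n = 5), vehicle 90 d (10.82 ± 0.10 SD, n = 6) and vehicle 21 d (10.56 ± 0.12 SD, n = 6). Each group overlapped with the next in this order, treated 21 d and vehicle 90 d livers least, with 10.90 as the lowest treated and 10.93 as the highest vehicle value. Vehicle livers of 90 d ranged from 10.65 to 10.93 and those of 21 d from 10.41 to 10.73, a difference of means of 0.27 ± 0.11 (SE, limma adjusted p = 0.775). The 5 other probe sets of Tubb4b did not pass at either time. Their log2 fold changes lay between 0.01 and 0.20 at 21 d and between -0.03 and 0.18 at 90 d, and their mean log2 signals over the 23 arrays between 3.19 and 8.80. The brightest of these 5, with a mean of 8.80, had 0.04 at 21 d and -0.03 at 90 d (limma adjusted p = 0.889 and 0.946). It correlated with the representing probe set at 0.33 over the 23 arrays, so the rise at 21 d rests on 1 probe set. With the mean of all 6 probe sets in place of the brightest, Tubb4b had a log2 fold change of 0.18 at 21 d (limma adjusted p = 0.101).

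**Figure D2:**
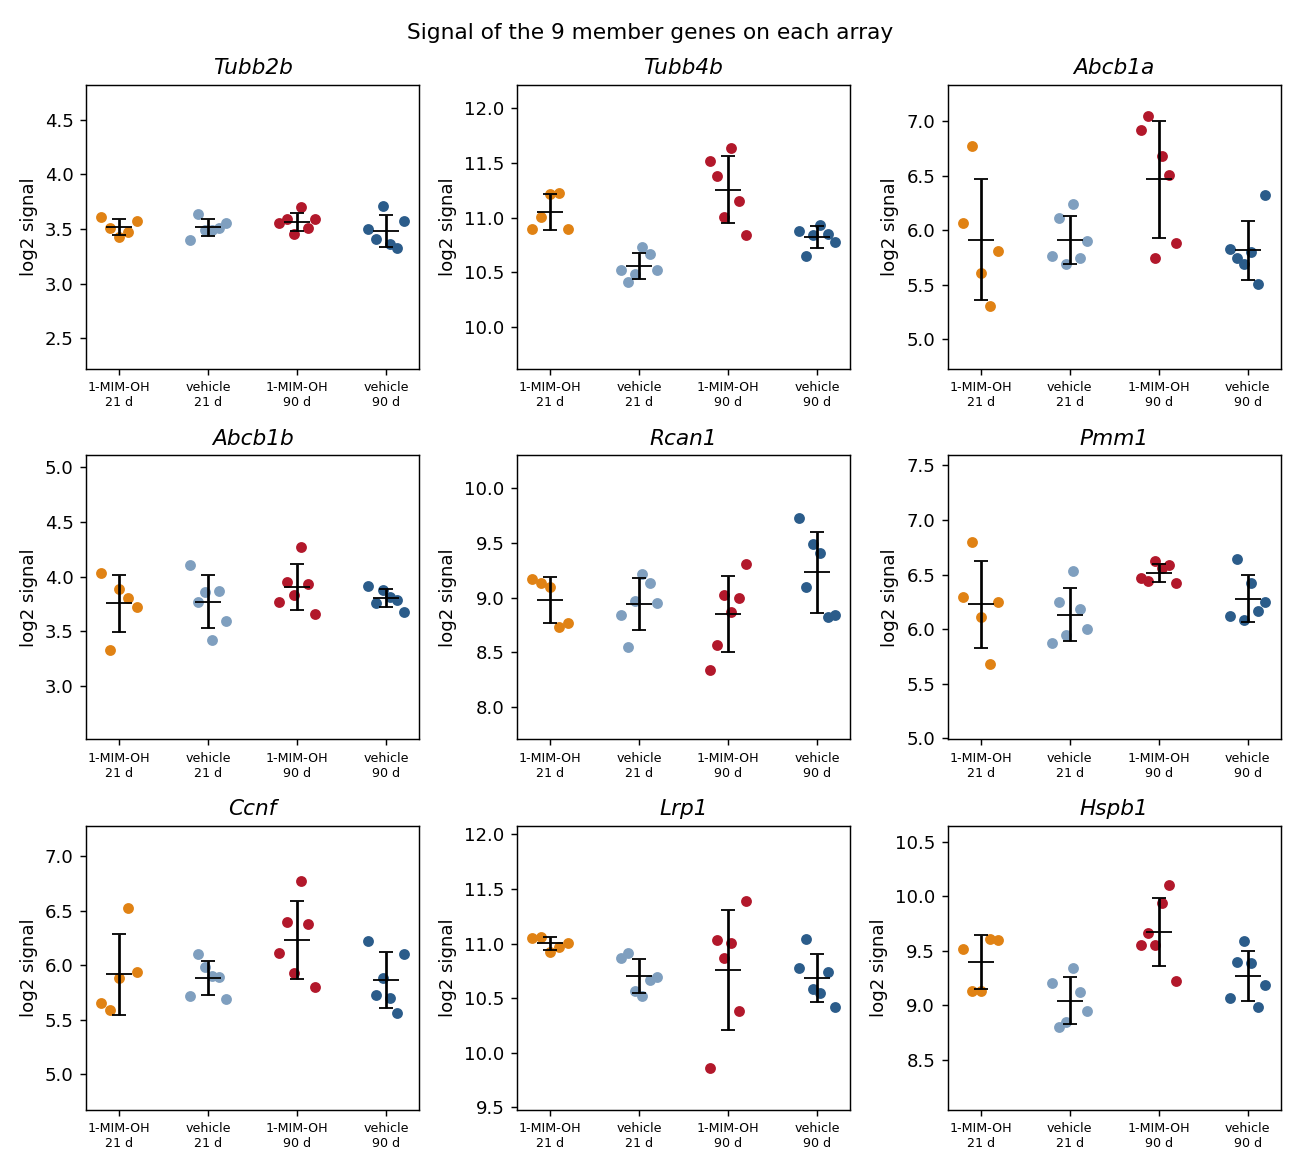
Log2 signal (y axis) of the 9 measured members on each of the 23 arrays, by group (x axis); each dot is 1 animal, lines give the group mean and bars the SD, and all panels span the same number of log2 units. The treated 21 d dots of Tubb4b (10.90 to 11.23) and of Lrp1 (10.92 to 11.06) lie above their vehicle dots, and the dots of Tubb2b lie between 3.33 and 3.71 in all 4 groups.

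Tubb2b, the beta-tubulin best known from neurons, had a low signal and no detectable difference. Its log2 signal was 3.43 to 3.61 in treated and 3.40 to 3.64 in vehicle livers at 21 d, and 3.45 to 3.70 in treated and 3.33 to 3.71 in vehicle livers at 90 d. The groups overlapped at both times. Its log2 fold change was 0.00 ± 0.07 at 21 d (SE, 95% interval -0.13 to 0.14, limma adjusted p = 0.985) and 0.09 ± 0.06 at 90 d (SE, interval -0.05 to 0.22, limma adjusted p = 0.703). The mean signal of 3.52 lay below the array medians.

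Among the other tubulins, a list of 14 genes of which 12 were measured, 1 rose, 0 fell and 11 did not pass at 21 d. Of all genes, 1.17% passed at that time. Tuba4a, an alpha-tubulin, rose at 21 d, with a log2 fold change of 0.34 ± 0.08 (limma adjusted p = 0.0418, SE after the value) and means of 13.76 in treated and 13.41 in vehicle livers. Its ranges of 13.51 to 13.98 in treated and 13.29 to 13.53 in vehicle livers overlapped by a small margin. The call ended in 12 of the 23 fits that left out 1 array, namely those without treated 21 d replicates 1, 3 or 4, any of the 6 vehicle 21 d arrays, or vehicle 90 d replicates 3, 5 or 6, and without the 5 arrays over 0.9 the log2 fold change was 0.10 (limma adjusted p = 0.872). The other tubulins had a median log2 fold change of 0.17 at 21 d, with 11 of 12 above 0. All genes had a median of -0.02, with 43.7% above 0. At 90 d, 0 of the 12 passed, the median was 0.07, and Tuba4a had 0.08 (limma adjusted p = 0.786).

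Abcb1a, which encodes the P-glycoprotein mdr1a, had the highest log2 fold change of the members at 90 d without passing. The treated livers of 90 d had log2 signals of 6.92, 7.05, 5.75, 6.68, 6.51 and 5.88, against 5.83, 5.75, 5.69, 5.80, 5.51 and 6.32 in vehicle livers. Replicates 1, 2, 4 and 5 of the treated group lay above the highest vehicle liver, and replicates 3 and 6 lay within the vehicle range. The log2 fold change was 0.65 ± 0.22 (SE, 1.57-fold, 95% interval 0.19 to 1.10, limma unadjusted p = 0.00702, adjusted p = 0.247). Without the 5 arrays over 0.9, of which 4 were treated arrays of 21 d, the log2 fold change at 90 d was 0.77. Abcb1a passed at 90 d in none of the 23 fits that left out 1 array, with a lowest limma adjusted p of 0.0932.

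At 21 d, the same gene showed no such difference in means. Abcb1a measured 6.07, 6.77, 5.61, 5.31 and 5.81 in treated livers, against 5.76, 6.11, 5.69, 6.24, 5.75 and 5.90 in vehicle livers. The treated values at 21 d reached both above and below the vehicle range, with an SD of 0.55 in treated (n = 5) and 0.22 in vehicle livers (n = 6). The log2 fold change was 0.01 ± 0.23 (SE, limma adjusted p = 0.995). The 90 d effect minus the 21 d effect was 0.64 ± 0.32 (SE, limma unadjusted p = 0.0548, adjusted p = 0.527), so the effects at the 2 times were not shown to differ.

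The second probe set of Abcb1a had a mean log2 signal of 4.82 and log2 fold changes of -0.25 ± 0.30 at 21 d and 0.65 ± 0.28 at 90 d (SE, limma adjusted p = 0.75 and 0.415). At 90 d its range was 4.48 to 6.29 in treated and 4.14 to 5.37 in vehicle livers. Over the 23 arrays the 2 probe sets correlated at 0.84, as a description of arrays that share their RNA and their labelling.

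Abcb1b, the gene of the other P-glycoprotein and the neighbour of Abcb1a on chromosome 5, had low signals on all arrays, with a mean of 3.81. Its log2 fold change was -0.02 ± 0.12 at 21 d (SE, limma adjusted p = 0.971) and 0.10 ± 0.11 at 90 d (SE, 95% interval -0.14 to 0.33, limma adjusted p = 0.826). A second probe set, with a mean of 3.76, had 0.08 at 21 d and 0.06 at 90 d. No difference between the groups was detectable for Abcb1b on this array. Of 13 other ABC exporters, all measured, 0 passed at 21 d and 0 at 90 d, and their medians were 0.09 and 0.07. The member of that list with the largest change at 90 d was Abcb4, the phospholipid exporter of the bile canaliculus, with means of 12.04 in treated and 11.61 in vehicle livers (0.43 ± 0.10 SE, limma adjusted p = 0.0611).

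Hspb1, which encodes the chaperone Hsp25 of the mouse, had higher means in treated livers at both times and passed at neither. Its log2 signal was 9.52, 9.13, 9.13, 9.61 and 9.60 in treated livers at 21 d, against 9.20, 8.80, 8.85, 9.34, 9.12 and 8.95 in vehicle livers. At 90 d it was 9.55, 9.66, 9.55, 9.94, 10.10 and 9.22 in treated livers, against 9.07, 9.40, 9.59, 9.39, 8.98 and 9.19 in vehicle livers. The groups overlapped at both times, with 3 of 5 treated livers at 21 d and 3 of 6 at 90 d above the highest vehicle liver. The log2 fold change was 0.35 ± 0.14 at 21 d (SE, limma unadjusted p = 0.0212, adjusted p = 0.22) and 0.40 ± 0.14 at 90 d (SE, 95% interval 0.12 to 0.68, limma unadjusted p = 0.00759, adjusted p = 0.255). The 90 d effect minus the 21 d effect was 0.05 ± 0.20 (SE, limma adjusted p = 0.956).

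The second probe set of Hspb1 had a log2 fold change of 0.24 ± 0.14 at 21 d and 0.39 ± 0.14 at 90 d (SE, limma adjusted p = 0.453 and 0.268), and the 2 probe sets correlated at 0.92 over the 23 arrays. Of 17 other small and inducible heat shock genes and co-chaperones, 15 were measured, and 0 passed at 21 d and 0 at 90 d. Their median log2 fold change was -0.02 at 21 d and 0.02 at 90 d, the same as the medians of all genes, -0.02 and 0.02. The single genes spread around these medians, from -1.09 to 0.18 at 21 d and from -0.41 to 0.37 at 90 d. The member of the list with the largest change at 90 d was Bag3, a co-chaperone of Hsp70, which had -0.41 ± 0.20 (SE, limma adjusted p = 0.5).

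No difference between treated and vehicle livers was called for Ccnf at either time. Treated livers at 90 d measured 6.11, 6.40, 5.93, 6.77, 6.38 and 5.80 in log2 signal, against 6.22, 5.73, 5.88, 5.70, 5.56 and 6.10 in vehicle livers. Treated replicates 2, 4 and 5 lay above the vehicle range and the other 3 within it. Ccnf had a log2 fold change of 0.37 ± 0.16 at 90 d (SE, limma unadjusted p = 0.0276, adjusted p = 0.404). At 21 d it was 0.04 ± 0.16 (SE, limma adjusted p = 0.95), with 5.59 to 6.52 in treated and 5.69 to 6.10 in vehicle livers. A dimmer probe set, with a mean of 4.19, had 0.13 at 21 d and 0.07 at 90 d.

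The partners of cyclin F in the ubiquitin ligase, some of its substrates and other cell cycle genes formed a list of 18, of which 16 were measured. At 21 d 0 of the 16 passed, with a median log2 fold change of -0.00, and at 90 d 0 passed, with a median of 0.16 and 14 of 16 above 0. Of all genes, 57.2% lay above 0 at 90 d. Ccnb2, which encodes the mitotic cyclin B2, had the largest change of the list at 90 d, with means of 5.66 in treated and 4.89 in vehicle livers (0.77 ± 0.21 SE, limma adjusted p = 0.108).

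Rcan1 was the only measured member with a lower mean in treated livers at 90 d. In log2 signal it measured 8.34, 8.57, 9.02, 8.87, 9.0 and 9.31 in treated livers at 90 d, against 9.73, 9.10, 9.49, 9.41, 8.82 and 8.84 in vehicle livers. The 2 lowest values were treated replicates 1 and 2, and the other 4 treated livers lay within the vehicle range. This gave a log2 fold change of -0.38 ± 0.16 (SE, limma unadjusted p = 0.0277, adjusted p = 0.405). At 21 d it was 0.04 ± 0.17 (SE, limma adjusted p = 0.951), with 8.73 to 9.17 in treated and 8.55 to 9.22 in vehicle livers. The second probe set had -0.21 ± 0.12 at 21 d and -0.31 ± 0.12 at 90 d (SE, limma adjusted p = 0.438 and 0.319).

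The vehicle groups of Rcan1 differed by 0.29 ± 0.16 (90 d minus 21 d, SE, limma adjusted p = 0.879), with means of 9.23 ± 0.37 (SD, n = 6) at 90 d and 8.94 ± 0.24 (SD, n = 6) at 21 d. Calcineurin subunits, NFAT factors and other calcineurin regulators formed a list of 12, all measured. At 21 d 0 of the 12 passed, with a median log2 fold change of -0.05, and at 90 d 0 passed, with a median of 0.05. The largest change of the list at 90 d was that of Ppp3cc, a catalytic subunit of calcineurin, with 0.22 ± 0.11 (SE, limma adjusted p = 0.516).

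Pmm1, the phosphomannomutase, had a narrow range in treated livers at 90 d. Its log2 signal was 6.47, 6.44, 6.62, 6.56, 6.59 and 6.42 in treated livers at 90 d, against 6.12, 6.64, 6.08, 6.42, 6.17 and 6.25 in vehicle livers. Vehicle replicate 2 lay above all treated livers, and the other 5 vehicle livers lay at or below the lowest treated one. The log2 fold change was 0.24 ± 0.14 at 90 d (SE, limma adjusted p = 0.588) and 0.10 ± 0.14 at 21 d (SE, limma adjusted p = 0.813). The 21 d ranges were 5.68 to 6.80 in treated and 5.87 to 6.53 in vehicle livers.

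The second probe set of Pmm1 pointed in different directions at the 2 times, with -0.27 ± 0.16 at 21 d and 0.36 ± 0.15 at 90 d (SE, limma adjusted p = 0.435 and 0.389). The 90 d effect minus the 21 d effect of that probe set was 0.63 ± 0.22 (SE, limma unadjusted p = 0.00788, adjusted p = 0.492). Enzymes that make activated mannose and the precursors of N-glycans formed a list of 13, all measured. At 21 d 0 of the 13 passed, with a median log2 fold change of 0.16, and at 90 d 0 passed, with a median of 0.03. The largest change at 90 d was that of Gmppb, which makes GDP-mannose, with -0.43 ± 0.30 (SE, limma adjusted p = 0.667).

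Lrp1, the endocytic receptor, separated the groups at 21 d but did not pass. Its log2 signal was 11.05, 11.06, 10.92, 10.97 and 11.01 in treated livers at 21 d, against 10.87, 10.91, 10.57, 10.52, 10.67 and 10.69 in vehicle livers. All 5 treated livers lay above all 6 vehicle livers at 21 d, which was the case for 1.53% of all genes. Its log2 fold change was 0.30 ± 0.18 (SE, limma adjusted p = 0.439). At 90 d the treated livers spread over 9.86, 11.03, 10.87, 11.01, 10.38 and 11.39, against 10.78, 11.04, 10.58, 10.55, 10.74 and 10.42 in vehicle livers. The SD at 90 d was 0.55 in treated and 0.22 in vehicle livers (n = 6 each), against 0.06 in treated livers at 21 d (n = 5), and all groups share 1 spread per probe set in the fit.

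With the 2 groups of 21 d alone in the fit, Lrp1 had the same log2 fold change with an SE of 0.08 and a limma adjusted p of 0.108. With the Gapdh 3' minus 5' value as a covariate, its log2 fold change at 21 d was -0.01, next to a Gapdh difference of 0.67 between the same groups. At 90 d the log2 fold change was 0.07 ± 0.17 (SE, limma adjusted p = 0.922). A second probe set had 0.89 ± 0.43 at 21 d (SE, limma unadjusted p = 0.049, adjusted p = 0.315) and -0.03 ± 0.41 at 90 d, and the 2 probe sets correlated at 0.21 over the 23 arrays. Of 15 other genes of the LDL receptor family and its ligands, 14 were measured, and 0 passed at 21 d and 0 at 90 d. Their medians were -0.03 and 0.04. Vldlr, the VLDL receptor, had the largest change at 90 d, with means of 8.71 in treated and 9.36 in vehicle livers (-0.65 ± 0.19 SE, limma adjusted p = 0.141).

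For Ly6a no values are given, and its family and the interferon response were read from lists. Of 13 other genes of the Ly6 family 10 were measured, 0 passed at 21 d and 0 at 90 d, and the medians were -0.06 and 0.09. Ly6d had the largest change of them at 90 d, with means of 6.71 in treated and 6.17 in vehicle livers (0.53 ± 0.18 SE, limma adjusted p = 0.241). Of 16 interferon response genes 13 were measured, and 0 passed at 21 d and 0 at 90 d. Their median log2 fold change was -0.18 at 21 d, with 2 of 13 above 0, against 43.7% of all genes. At 90 d their median was 0.20, with 11 of 13 above 0, against 57.2% of all genes. Between the vehicle livers of 90 d and 21 d their median difference was -0.20, with 12 of 13 below 0 and Mx1 at 0, and 0 passed by limma. The 6 Kupffer cell and macrophage markers (Adgre1, Clec4f, Cd68, Marco, Vsig4, Csf1r) all lay below 0 at 21 d and above 0 at 90 d, with log2 fold changes of -0.69 to -0.06 at 21 d and 0.13 to 1.11 at 90 d, and 0 passed by limma at either time. The mean log2 signal of these 6 markers was 8.32 to 11.11 in treated and 8.57 to 10.57 in vehicle livers at 21 d, and 8.47 to 10.03 in treated and 8.37 to 9.73 in vehicle livers at 90 d. The groups overlapped in it at both times, and its part in the values of the interferon and Ly6 lists was not tested. Irf7, a transcription factor of that response, had 0.50 ± 0.18 at 90 d (SE, limma adjusted p = 0.295).

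Over the 9 lists of related genes together, 118 genes were measured, of which 1 rose and 0 fell at 21 d, and 0 rose and 0 fell at 90 d by limma. Of all genes, 1.17% passed at 21 d and 0.748% at 90 d, so the 1 call is near the share of all genes. An unadjusted p under 0.05 was found for 20 of the 118 genes at 21 d and for 14 at 90 d. The shares for all genes at that threshold were 16.6% at 21 d and 12.1% at 90 d. The median log2 fold change of the 118 genes was -0.00 at 21 d and 0.06 at 90 d.

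Probe sets of the same member often differed. Of the 21 probe sets 1 passed at 21 d, that of Tubb4b, and 0 at 90 d by limma, and the 12 that did not represent a gene passed at neither time. An unadjusted p under 0.05 was found for 4 of the 21 at 21 d, against 15.8% of all probe sets, and for 9 at 90 d, against 10.2% of all probe sets. Log2 fold changes were above 0 for 17 of the 21 at each time. Of all genes, each by its brightest probe set, 43.7% lay above 0 at 21 d and 57.2% at 90 d. These are shares of genes and not of probe sets. Probe sets of the same gene are not independent, and 6 of the 21 belong to Tubb4b, so these counts overstate the number of separate results. Of the 8 members with several probe sets, all probe sets had the same sign in 4 members at 21 d and in 6 at 90 d. 

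**Figure D3:**
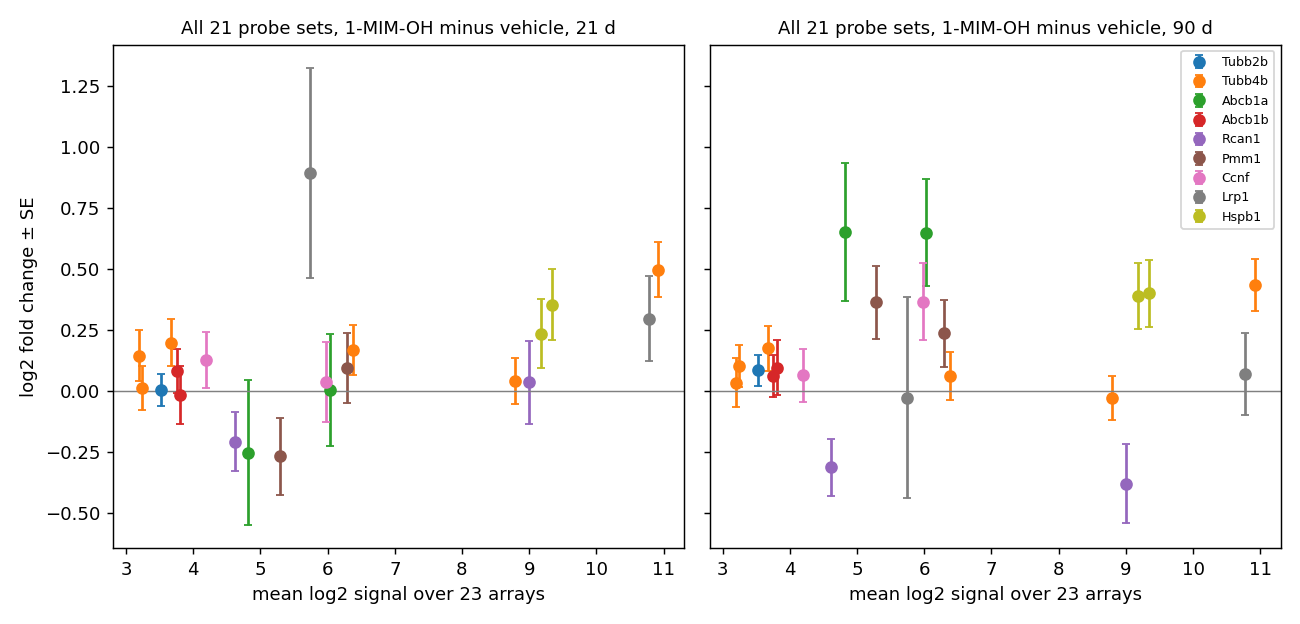
Log2 fold change of treated over vehicle livers with its SE (y axis) against the mean log2 signal over the 23 arrays (x axis) for all 21 probe sets of the 9 measured members (colours), at 21 d (left) and 90 d (right). Both probe sets of Abcb1a lie at 0.65 and both of Hspb1 near 0.40 at 90 d, while the 6 probe sets of Tubb4b spread from -0.03 to 0.44.

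At 90 d the treated animals differed among themselves in several members. Tubb4b, Abcb1a and Ccnf each had their 2 lowest treated values in replicates 3 and 6. Relative to the mean of the vehicle livers, replicate 4 had log2 differences of 0.82 for Tubb4b, 0.86 for Abcb1a, 0.91 for Ccnf and 0.67 for Hspb1. Replicate 3 had 0.19 for Tubb4b, -0.07 for Abcb1a, 0.07 for Ccnf and 0.28 for Hspb1. Replicate 6 had 0.02 for Tubb4b, 0.06 for Abcb1a, -0.07 for Ccnf and -0.05 for Hspb1. Among the 9 measured members, replicate 6 had the lowest treated value in 5 and 1 of the 2 lowest in 6.

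Replicate 6 was also the treated array at 90 d with a Gapdh 3' minus 5' value over 0.9, at 1.24, and the part of RNA quality in these values was not tested. Rcan1 and Lrp1 ran otherwise, with the highest treated values in replicate 6 (9.31 for Rcan1, 11.39 for Lrp1) and the lowest in replicate 1 (8.34 for Rcan1, 9.86 for Lrp1). Cdkn1a, a p53 target that encodes the cell cycle inhibitor p21, is given for orientation, and its log2 signal in the same animals was 10.89, 10.69, 9.01, 11.79, 10.67 and 9.15. Its 2 lowest treated values were those of replicates 3 and 6, and its log2 fold change was 3.67 ± 0.34 at 90 d (SE, limma adjusted p = 2.1e-06) and 2.60 ± 0.36 at 21 d (SE, limma adjusted p = 0.00135). Of the 9 measured members, none had a log2 fold change over 0.65 at either time by its representing probe set.

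**Figure D4:**
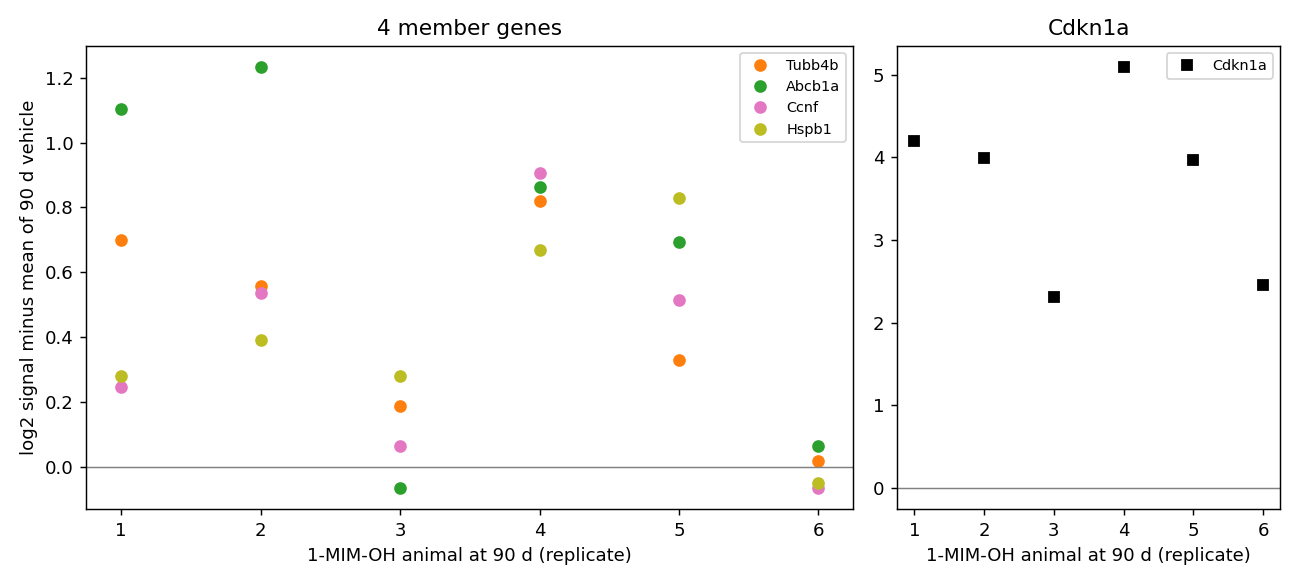
Log2 signal minus the mean of the 90 d vehicle livers (y axis) in each of the 6 treated animals at 90 d (x axis, replicate number), for the 4 members with a higher mean and an unadjusted p under 0.05 (left) and for Cdkn1a (right, other scale). In replicate 6 the 4 members lie between -0.07 and 0.06, and in replicate 4 between 0.67 and 0.91.

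The genes whose signal was most like that of Tubb4b over the 23 arrays were Polk (Pearson r = 0.915), a translesion DNA polymerase, Aen (0.889), an exonuclease, and Ccng1 (0.872), cyclin G1. They were the 3 with the highest correlation among all genes, so the values describe the choice. The arrays share the group differences, and after subtraction of the group means the correlations were 0.764 for Polk, 0.762 for Aen and 0.660 for Ccng1. Polk had a log2 fold change of 0.56 ± 0.12 at 21 d and 0.62 ± 0.12 at 90 d (SE, limma adjusted p = 0.03 and 0.00978). Aen had 0.57 ± 0.11 at 21 d and 0.80 ± 0.11 at 90 d (SE, limma adjusted p = 0.0178 and 0.000301). Ccng1 had 0.54 ± 0.12 at 21 d and 0.93 ± 0.12 at 90 d (SE, limma adjusted p = 0.0385 and 0.000207). At 21 d the call ended in 7 of the 23 fits that left out 1 array for Polk and in 10 for Ccng1, with highest limma adjusted p of 0.0879 and 0.0838. Without the 5 arrays over 0.9, none of the 3 passed at 21 d by limma, with adjusted p of 0.2 for Polk, 0.0535 for Aen and 0.212 for Ccng1.

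**Figure D5:**
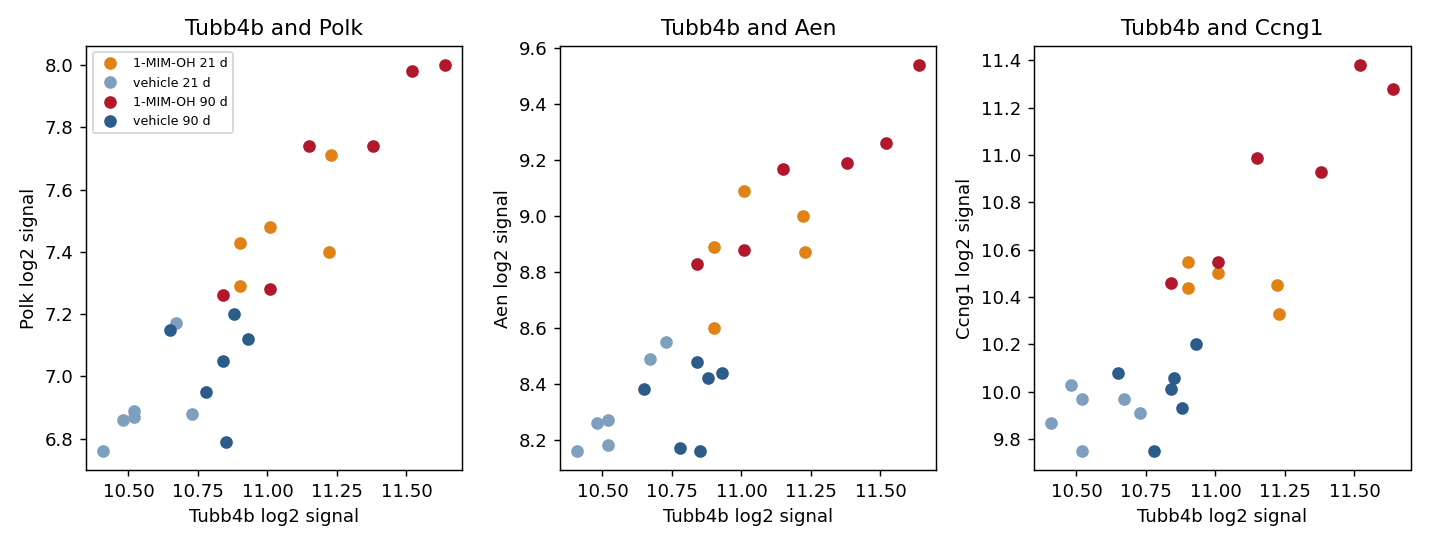
Log2 signal of Polk, Aen and Ccng1 (y axes) against that of Tubb4b (x axis) on each of the 23 arrays, coloured by group. At 90 d Polk reaches 7.26 to 8 in treated livers, against 6.79 to 7.20 in vehicle livers, and Ccng1 reaches 10.46 to 11.38 in treated livers at 90 d, against 9.75 to 10.20 in vehicle livers.

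The effects at the 2 times were compared directly for the members. For the 90 d effect minus the 21 d effect, 0 of the 9 members passed by limma and 0 had an unadjusted p under 0.05, and among all probe sets 0% passed while 9.59% had an unadjusted p under 0.05, as did 8.64% of all genes. Their differences ran from -0.42 for Rcan1 to 0.64 for Abcb1a, with 6 of 9 above 0. Between the vehicle livers of 90 d and 21 d, 0 of the 9 members passed by limma, and 0.00666% of all probe sets did. Tubb4b was the only member with an unadjusted p under 0.05 in that comparison, which 6.43% of all genes reached, and 0.011% of all genes passed. The vehicle groups of 90 d and 21 d overlapped for all 9 members and failed to overlap for 0.808% of all genes, and duration and age of the animals cannot be told apart in it.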

How the data were processed

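Liver RNA of each of the 23 mice was measured on its own Affymetrix Mouse Genome 430 2.0 array after 3' labelling, per the labels' protocols. The deposited values are log2 signals with 2 decimals, made by the authors with Partek and RMA per the submitters' processing notes, with versions not given in the sources used here. No label states the log2 base, which the range of 2.23 to 15.41 implies. RMA gives all arrays 1 distribution and hides a shift of all genes together. Without raw scans, background was not assessed.

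Of 45101 probe sets, 64 controls were left out. A platform annotation table paired 34945 probe sets with 1 gene and 932 with several, and 9160 had none in it. The 4 group means were fitted by lmFit and eBayes (limma 3.58.1, R 4.3.3) over 45037 probe sets and all 23 arrays (19 residual degrees of freedom), with Benjamini-Hochberg adjustment, and the fit was tested on simulated data. The limma p-values weigh a difference of means against the spread between animals within groups, which the 4 groups share. The number of arrays limits the precision. The text names all members, each passing gene of the related lists or otherwise the gene with the largest change at 90 d, the 3 genes nearest to the member with the smallest p, and Cdkn1a. The members, lists and tests were chosen with earlier results of these data known. Same-numbered animals of treated and vehicle groups did not deviate together (correlations -0.195 to -0.139 at 21 d and -0.358 to -0.231 at 90 d), and the main fit does not pair them. These correlations were all negative and cannot exclude a pairing by number. Alternatives were other summaries, filters, scalings, fits and sets of arrays. Protein sequences were not used here.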

Additional observations from a re-analysis of the deposited data

Results flagged for a closer look

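A value far from the others of its group was found in 2 of the 88 groups of values tested, over all 21 probe sets and the Gapdh control, and chance gives about 1 in 20. A dim probe set of Tubb4b had a log2 signal of 2.90 in treated 90 d replicate 5, while the other 5 treated livers lay between 3.25 and 3.42. The dimmer probe set of Ccnf had 4.5 in treated 90 d replicate 4, while the other 5 lay between 4 and 4.17. Neither probe set represents its gene.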

How the results depend on the processing

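Of 303 member values under the other settings, 274 kept direction and side of the threshold, 4 lost and 4 gained the call and 21 turned in sign; of 828 with 1 array left out, these were 780, 8, 2 and 38. A value counted as turned whatever its size. None of the values that turned had passed, and the cause was not tested for any change given here.

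With a gene's probe sets averaged, 240 genes passed at 21 d, 0 of them members, and 14 in the vehicle comparison; log2 fold changes at 21 d turned to -0.12 for Abcb1a, 0.033 for Abcb1b, -0.085 for Rcan1 and -0.086 for Pmm1, and between vehicle groups Lrp1 had 0.15 and Pmm1 -0.005. With a mean log2 signal of at least 6, 813 probe sets passed at 21 d and 6 in the vehicle comparison, and 1 member at 90 d, Tubb4b (limma adjusted p = 0.0456). The vehicle comparison gave 6 probe sets after a further quantile normalization, 7 after median centring and 7 with a trended, robust prior. With only the 2 groups compared, 207 passed at 21 d, 149 at 90 d and 20 between vehicle groups. The fit with the replicate number as a block gave 91 probe sets at 21 d, 148 at 90 d, 0 between vehicle groups and 0 members at 21 d (Tubb4b 0.46, limma adjusted p = 0.0628). In that fit Abcb1a had -0.00033 at 21 d, and the replicate numbers are not known to pair animals. The 21 d calls of Tuba4a, Polk and Ccng1 ended with averaged probe sets, the block, the Gapdh covariate or the 5 arrays left out, that of Tuba4a also after a further quantile normalization and with 2 groups in the fit, that of Aen with averaged probe sets or the 5 arrays left out, and the 90 d call of Polk with 2 groups in the fit (limma adjusted p = 0.0571).

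With the Gapdh value as a covariate, 123 passed at 21 d and 504 at 90 d, with 0 members at 21 d and 1 at 90 d; the 21 d values turned to -0.060 for Tubb2b, -0.056 for Rcan1, -0.090 for Ccnf and -0.014 for Lrp1, the differences of effects to -0.13 for Pmm1 and 0.071 for Lrp1, and the vehicle values to 0.015 for Abcb1a and -0.0038 for Abcb1b. Without the 5 arrays over 0.9, 761 passed at 90 d, 6 for the difference of effects and 18 between vehicle groups, with 0 members at 21 d and 2 at 90 d (Tubb4b and Abcb1a); Tubb2b had -0.0033 and Ccnf -0.29 at 21 d, Lrp1 had -0.055 at 90 d, and the differences of effects turned to 0.063 for Tubb4b, -0.10 for Abcb1a and -0.41 for Pmm1.

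Leaving out 1 array, 133 to 2265 probe sets passed at 21 d, 114 to 389 at 90 d, 0 to 53 for the difference and 0 to 16 between vehicle groups, with 0 to 1 members at 21 d and 0 to 1 at 90 d. Dropping treated 21 d replicate 2 gave the 2265, dropping replicate 1 or 6 of treated 90 d gave 694 or 905 at 21 d, and there were 133 to 211 without treated 21 d replicates 1, 3 or 4 or vehicle 21 d replicates 2, 3, 4, 5 or 6. The 90 d count was 340 or 389 on dropping replicate 3 or 6 of treated 90 d, 376 on dropping replicate 2 of treated 21 d, and 114 to 147 without treated 90 d replicates 2, 4 or 5 or vehicle 90 d replicates 1, 3, 4, 5 or 6. Values that turned ran at 21 d from -0.018 to 0.030 for Tubb2b, -0.21 to 0.16 for Abcb1a, -0.086 to 0.090 for Abcb1b, -0.12 to 0.12 for Ccnf, -0.048 to 0.23 for Pmm1 and -0.042 to 0.099 for Rcan1. At 90 d Lrp1 ran from -0.055 to 0.25 and the Gapdh difference from -0.11 to 0.11. The difference of effects ran from -0.041 to 0.14 for Hspb1 and -0.14 to 0.021 for Tubb4b, and the vehicle values from -0.035 to 0.10 for Abcb1b, -0.086 to 0.046 for Ccnf and -0.091 to 0.033 for Lrp1. The Gapdh difference at 21 d ran from 0.56 to 0.89.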
